A study of Blastobotrys raffinosifermentans with 8 samples.

Results

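Protocatechuic acid against glucose was compared in the yeast Blastobotrys raffinosifermentans after 30 min and after 2 h, on 4 of the 8 arrays of the series. The members of the comparison were chosen by sample title: 1 array of cells with protocatechuic acid and 1 array of cells with glucose at each of the 2 times. Cells of the wild-type strain LS3 had grown overnight in yeast minimal medium with glucose and nitrate, were pelleted, and were moved to fresh nitrate medium that held 1% glucose alone or 1% glucose with 0.5% protocatechuic acid. Both groups therefore carried glucose, and the groups differed by the added acid. Each medium and time had 1 array, the labels name no second culture, and all arrays lay on 1 slide. The glucose arrays filled one of its rows and the acid arrays the second, which means that the effect of the medium and that of the row cannot be told apart. The arrays at 15 min and 5 h are given beside the results as values only.

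Protocatechuic acid is a dihydroxylated benzoic acid that occurs in plants and arises when microbes break down lignin. In B. raffinosifermentans the study describes removal of the carboxyl group, which gives catechol, as the preferred route. Catechol-1,2-dioxygenase then opens the ring to cis,cis-muconic acid, whose products enter central metabolism as small organic acids. A second route hydroxylates the acid or catechol to hydroxyquinol before the ring is opened. The arrays addressed the question of which genes could take part in this breakdown.

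Levels are given per gene, as the median log2 normalized intensity of all its spots, and a difference is the level with protocatechuic acid minus the level with glucose at the same time. Of 6160 identifiers on the array, 4756 passed a filter that asked for 50% or more of their spots to be well above background on any 1 of the 4 arrays, and 3413 met this on all 4. Per array, between 58.9% and 68.7% of yeast spots were that bright. An SD given with a difference is the spread over the spots of a gene on the same RNA, not an error between cultures, and a single time has no replicate and no test. In RNA of a whole culture, more cells that express a gene and more of its RNA per cell cannot be told apart. The 22 spike-in control RNAs differed by between -0.20 and 0.08 at 30 min and between -0.24 and 0.06 at 2 h. Many of them had levels of 5.05 or lower, near background, where a technical difference would hardly show. The brightest, with levels from 10.2 to 15.1, differed by between -0.08 and 0.01 at 30 min and between -0.24 and 0.02 at 2 h.

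Most genes differed little between the media. At 30 min 87.8% of the genes lay within 0.5 of 0, and at 2 h 86.0%. A difference of at least 1, which is a doubling, was found upwards for 115 genes at 30 min (2.42% of the genes that passed the filter) and for 108 genes at 2 h (2.27%). Downwards it was found for 26 genes at 30 min (0.547%) and for 51 genes at 2 h (1.07%). The largest increase was 8.61 at 30 min and 6.36 at 2 h, both of ARAD1D17754g. The largest decreases were smaller in size, -1.94 at 30 min and -3.32 at 2 h, the latter of a gene on chromosome B that had -0.88 at 30 min. Of the genes past 1 in size, 81.6% were higher with the acid at 30 min and 67.9% at 2 h. This split moved with the processing, to 62.3% and 64.1% with the scanner's processed signal and to 87.4% and 69.1% with a background offset of 50. Where arrays were then scaled to equal medians instead of quantiles it was 95.8% and 83.1%.

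There were 42 genes (0.883%) raised by at least 1 at both times and 10 genes (0.21%) lowered by at least 1 at both times. These 42 genes were 36.5% of the genes raised at 30 min and 38.9% of those raised at 2 h. The 10 lowered genes were 38.5% of those lowered at 30 min and 19.6% of those lowered at 2 h. A gene was counted as changed at one time only where it passed 1 at that time and stayed under 0.5 in that direction at the other. This held for 43 genes (0.904%) raised at 30 min only and for 55 genes (1.16%) raised at 2 h only. It also held for 12 genes (0.252%) lowered at 30 min only and for 27 genes (0.568%) lowered at 2 h only. No gene passed 1 in opposite directions at the 2 times. Genes in between, with 0.5 to 1 at the other time, numbered 30 and 11 among the raised genes of 30 min and 2 h and 4 and 14 among the lowered ones.

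**Figure D1:**
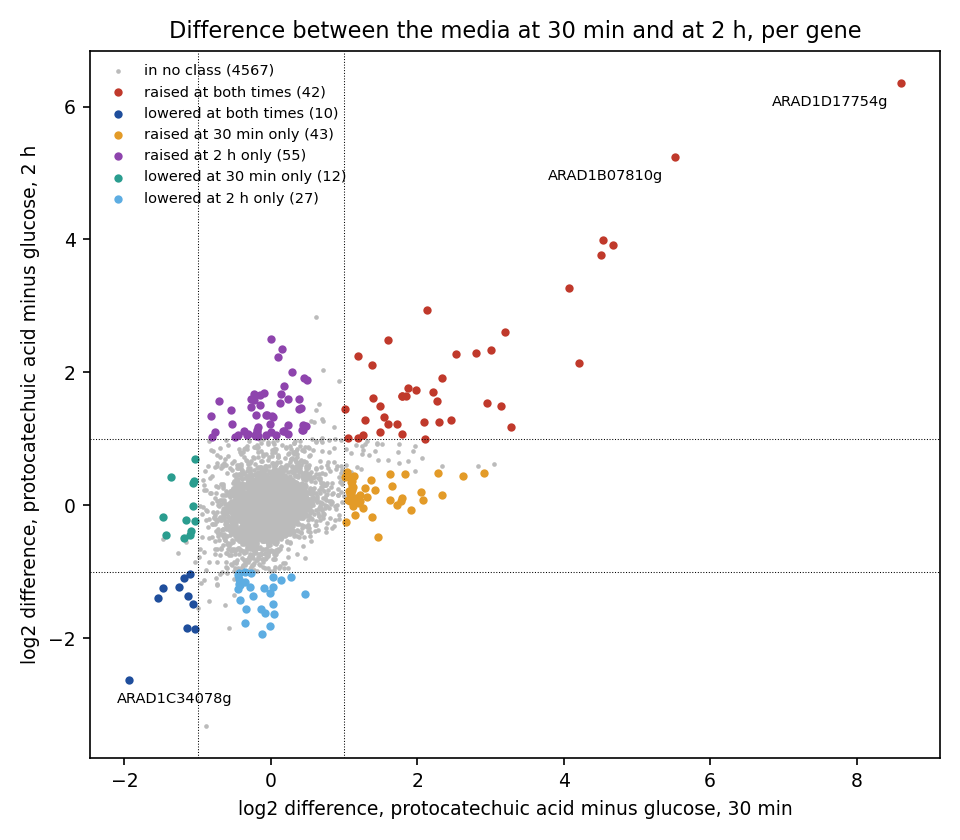
Each point is 1 of 4756 genes, with the log2 difference between protocatechuic acid and glucose at 30 min on the x axis and at 2 h on the y axis (1 array per medium and time). Coloured points are the 6 classes, dotted lines mark 1 and -1, and the 42 genes raised at both times reach 8.61 and 6.36 while the 10 lowered at both times reach down to -1.94 and -2.64.

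Across the 4756 genes, the differences at 30 min and at 2 h, which share no array, had a Pearson correlation of 0.503. Of these genes 1867 had opposite signs at the 2 times, and how far the genes with the largest differences carry this correlation was not tested. The correlation was 0.0791 between 15 min and 30 min and 0.13 between 2 h and 5 h. These are correlations across genes, which are not independent replicates, and the arrays share a slide.

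The gene with the highest mean of both times was ARAD1D17754g on chromosome D, which the files do not pair with a name. Its level with glucose was 4.94 at 30 min and 5.15 at 2 h. With protocatechuic acid it was 13.546 at 30 min and 11.504 at 2 h, the highest level of all 42 genes at each time. The difference was 8.61 ± 1.05 at 30 min and 6.36 ± 1.05 at 2 h (SD over 10 spots), and all 10 spots were higher with the acid at both times. At 30 min none of its spots was well above background with glucose, so the level was at least 390.3-fold higher with the acid on the scale of the deposited values. Over the processing settings its log2 difference at 30 min ran from 7.18 to 11.52, so the fold holds for the deposited scale alone. At 2 h 1 of 10 spots was well above background with glucose, and the difference corresponds to 82.0-fold. At 15 min and 5 h the difference was 5.09 and 6.37.

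The second was ARAD1B07810g on chromosome B, also without a name in the files. With glucose its level was 6.30 at 30 min and 6.17 at 2 h, and with the acid 11.82 and 11.40. The difference was 5.52 ± 1.61 and 5.24 ± 1.31 (SD over 8 spots), or 46.0-fold and 37.7-fold, with all 8 spots higher at both times. The values of this gene at the 2 times lay within the spread over spots, while that of ARAD1D17754g was lower at 2 h. At 15 min and 5 h ARAD1B07810g had 2.66 and 4.14.

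The other 8 of the 10 genes with the highest mean lay on chromosomes A (3), C (1) and D (4). The 4 genes on chromosome D all lay within 3 places of ARAD1D17754g, and the highest 3 of them had differences of 4.67, 4.54 and 4.07 at 30 min and 3.91, 3.99 and 3.26 at 2 h. The gene on chromosome C had 4.51 ± 1.44 at 30 min and 3.77 ± 1.23 at 2 h (SD over 10 spots). None of its 10 spots was well above background with glucose at either time, so its level was at least 22.2-fold and 13.6-fold higher. One gene on chromosome A had 4.21 at 30 min and 2.14 at 2 h, the widest gap between the times after ARAD1D17754g among these 10. Another had 3.002 and 2.341, from levels of 6.91 with glucose and 9.91 with the acid at 30 min and of 5.21 and 7.55 at 2 h, so both media were lower at 2 h.

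Among all 42 genes the difference ranged from 1.02 to 8.61 at 30 min with a median of 2.10, and from 1.00 to 6.36 at 2 h with a median of 1.64. It was larger at 30 min in 34 of the 42. In 12 genes it was at least 2 at both times, and in 6 at least 3. The median level of the class with glucose was 5.67 at 30 min and 5.33 at 2 h, and with the acid 8.26 and 7.38. Levels with glucose reached down to 4.47, and 6 genes at 30 min and 4 at 2 h had no spot well above background there. All spots of a gene were higher with the acid in 36 of the 42 genes at 30 min and in 37 at 2 h. In 40 of the 42 both acid arrays were above both glucose arrays, which the way the class was formed largely fixes, against 10.7% of all genes. At the edge of the class the last gene inside had 2.10 and 1.00, and the first outside 1.31 and 0.96.

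**Figure D2:**
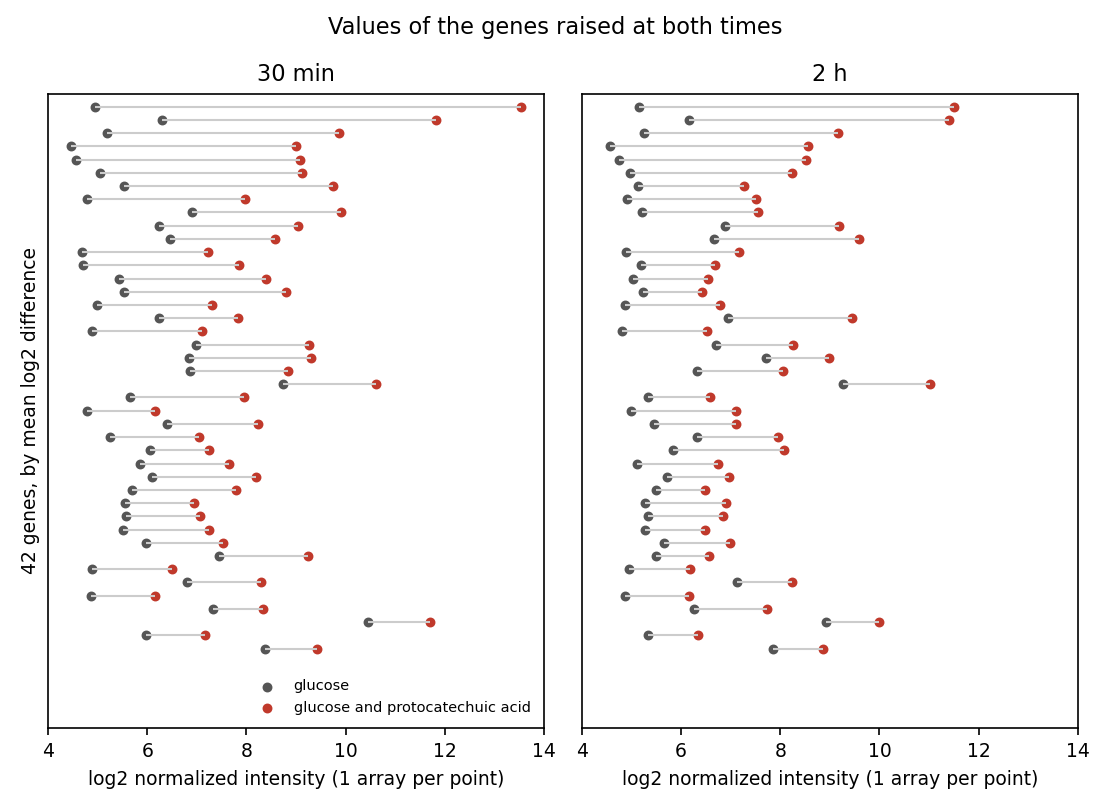
Levels (log2 normalized intensity, x axis) of the 42 genes raised at both times, ordered on the y axis by their mean difference, at 30 min (left) and 2 h (right), with 1 array per point. Glucose (grey, median 5.67 and 5.33) lies left of the acid (red, median 8.26 and 7.38), and the lines between the points are shorter at 2 h in 34 of the 42 genes.

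The arrays at 15 min and 5 h took no part in forming this class. At 15 min 18 of the 42 genes were raised by at least 1 (42.9%, against 6.31% of all genes), and at 5 h 15 were (35.7%, against 1.01%). Their median difference was 0.75 at 15 min and 0.57 at 5 h, where the median over all genes was -0.16 and 0.00. All 4 times were past 1 in 8 genes, 10 passed at 15 min but not at 5 h, 7 at 5 h but not at 15 min, and 17 at neither. The genes raised at 30 min only or at 2 h only were less alike across times: 2 of 43 and 5 of 55 were raised at 15 min, and 2 of 43 and 3 of 55 at 5 h. Whether the shares differ between these classes was not tested.

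Ordered by the number in their identifiers, 21 of the 42 had a direct neighbour in the same class, which made 14 neighbouring pairs out of 3695 pairs in which both genes passed the filter (0.379%). Of the 43 genes raised at 30 min only, 12 had such a neighbour, and of the 55 raised at 2 h only, 5. Among the lowered genes it was 0 of 9 for both times, 2 of 12 for 30 min only and 2 of 27 for 2 h only. There were 7 runs of genes raised at both times: 1 of 8 genes on chromosome D, 1 of 3 genes on chromosome B that ends with ARAD1B07810g, and 5 of 2 genes. By chromosome, 21 of the 42 lay on D (1.23% of the genes of D that passed), 8 on C (0.531%), 7 on B (0.83%) and 6 on A (0.926%).

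The run of 8 genes surrounds ARAD1D17754g, with 4 genes before it and 3 after it. The differences along the run at 30 min were 2.10, 3.19, 2.34, 4.54, 8.61, 4.67, 4.07 and 2.22. At 2 h they were 1.26, 2.61, 1.91, 3.99, 6.36, 3.91, 3.26 and 1.70, in nearly the same order of size. Each of the 8 genes was lower at 2 h than at 30 min, and all spots of all 8 were higher with the acid at both times. The gene before the run had 0.45 and 0.04, and the gene after it 0.58 and 0.00, so neither direct neighbour of the run passed 1. The third gene after it had 1.47 and 0.68. At 5 h 2 of the 8 were still past 1, at 6.37 and 1.46, and the others lay between -0.10 and 0.90. The run on chromosome B had differences of between 1.55 and 5.52 at 30 min and between 1.33 and 5.24 at 2 h.

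**Figure D3:**
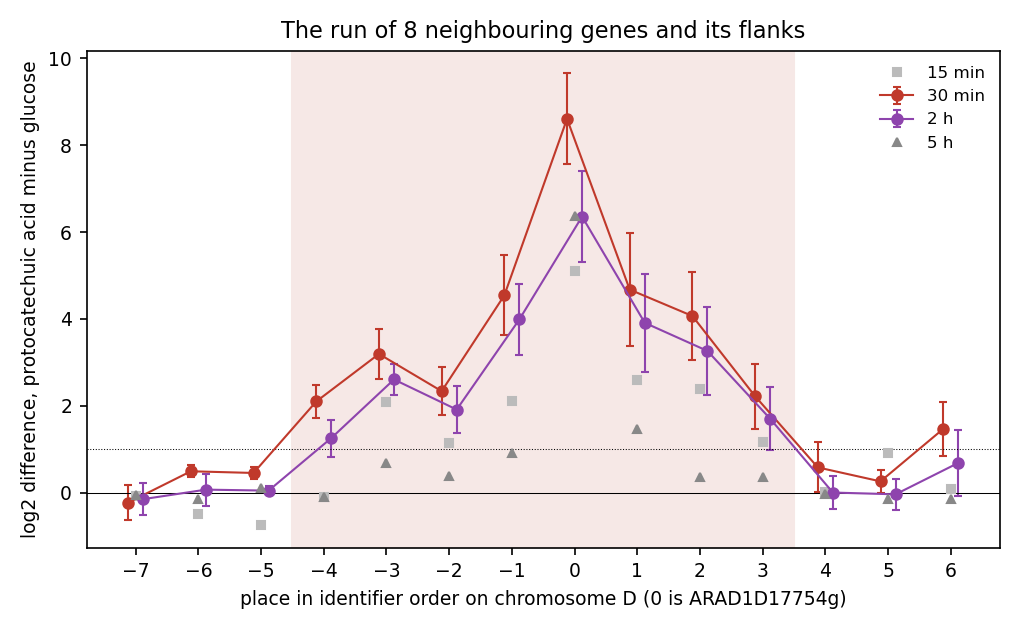
Log2 difference between protocatechuic acid and glucose (y axis) for the 8 neighbouring genes around ARAD1D17754g (shaded) and 3 genes on each side, in identifier order on chromosome D (x axis). Bars are the SD over spots within the arrays; values at 30 min (red) and 2 h (purple) peak at 8.61 and 6.36 and drop to 0.58 or less at the next gene on either side, and grey symbols give 15 min and 5 h.

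The study names 24 genes with an annotation for this breakdown, of which 22 have probes and 13 passed the filter. The study chose many of them on these samples, so their count is not independent evidence. At 30 min 2 of the 13 were raised by at least 1 and 1 was lowered, and at 2 h 2 were raised and 0 lowered. The median difference of the 22 was 0.05 at 30 min and 0.03 at 2 h, beside -0.03 and -0.03 over all identifiers. The array may number the genes of chromosome D differently from the study, so a value under such an identifier is that of the probes so labelled and not a measurement of the gene that the study names. Where on the array those genes lie, the run of 8 included, was not settled. This holds for 10 of the 22 identifiers.

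Both raised genes are annotated as 2-oxopent-4-enoate hydratase, an enzyme that adds water to an open-chain product of ring cleavage. ARAD1A09218g had a level of 6.24 with glucose and 9.04 with the acid at 30 min, and of 6.88 and 9.18 at 2 h. Its difference was 2.80 ± 0.67 at 30 min and 2.30 ± 0.47 at 2 h (SD over 11 spots), or 6.99-fold and 4.91-fold, with all 11 spots higher. ARAD1C00330g, which was also proposed as a hydroxylase candidate, had 4.69 with glucose and 7.22 with the acid at 30 min, and 4.88 and 7.16 at 2 h. None of its 12 spots was well above background with glucose and all 12 were with the acid, so its level was at least 5.76-fold higher at 30 min and at least 4.84-fold higher at 2 h on the scale of the deposited values. Its log2 difference ran over the processing settings from 1.36 to 4.97 at 30 min and from 1.48 to 5.31 at 2 h, beside 2.52 and 2.28. For both genes the acid arrays lay above the glucose arrays by more than the spread over spots. The gene next to ARAD1C00330g was raised at both times as well, by 1.60 and 1.22.

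The other identifiers of the upper pathway stayed below 1 in the deposited values. ARAD1A15158g, annotated as 4-oxalocrotonate decarboxylase, had no spot well above background with glucose at either time. With the acid 1 of 11 spots was at 30 min and 9 of 11 at 2 h, and its difference went from 0.13 ± 0.38 to 0.65 ± 0.30. At 2 h all 11 spots were higher with the acid, at least 1.57-fold for the gene. This value depended on how dim spots were treated, and came to 1.21 at an offset of 0 and to 2.54 in the scanner's processed signal. The tannase genes ATAN1 (ARAD1A06094g) and ATAN2 (ARAD1A19822g), whose enzymes split gallic acid from tannins, were too dim to pass the filter. Their differences were 0.12 and 0.40 at 30 min and 0.00 and 0.13 at 2 h, each with an SD over spots between 0.25 and 0.38. The identifier of the gallic acid decarboxylase gene AGDC1 has no probes.

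ARAD1D18458g, the identifier given for the dioxygenase gene ACDO1, had 0.04 ± 0.69 at 30 min and 0.15 ± 0.20 at 2 h over its 11 spots and did not pass the filter. ARAD1D18348g, the identifier given for 4-hydroxy-2-oxovalerate aldolase, had -0.47 ± 0.15 with 0 of 10 spots higher at 30 min, and -0.06 ± 0.35 with 5 of 10 at 2 h. The last probe of ARAD1D18458g starts at position 1618 by its name, which is beyond the end of the ACDO1 coding sequence, so whether ACDO1 changed cannot be read from these values.

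Among the hydroxylase candidates, enzymes that may add a hydroxyl group to the ring, ARAD1C00330g was raised and the other 7 identifiers, 3 of them on chromosome D, stayed below 1 in size. The study chose most of these candidates by searching this series for genes strongly increased by the acid, and its text names no time. ARAD1C03498g had 0.28 ± 0.17 and 0.23 ± 0.23 at the 2 times, beside 1.76 at 15 min. ARAD1C08580g had 0.27 ± 0.44 and 0.21 ± 0.19, and ARAD1D18392g 0.10 ± 0.12 and -0.20 ± 0.29. The probes under ARAD1D27984g, the identifier given for a salicylate hydroxylase, were lower at 30 min (7.87 with glucose, 7.48 with the acid, 0 of 8 spots higher). They were higher at 2 h (7.99 and 8.33, 7 of 8 spots higher). The probes under ARAD1D18502g, the identifier given for a phenol hydroxylase, had high levels of between 9.16 and 9.45 on all 4 arrays and differences of -0.03 and -0.13. Since the numbering on chromosome D was not settled, values under its identifiers need not be those of the named genes. ARAD1C08558g and ARAD1A17402g did not pass the filter. The 2 identifiers given for 3-oxoadipate enol-lactone hydrolase, which acts after ring cleavage, are also on chromosome D. Their probes had -0.06 and -0.06 (ARAD1D18480g) and 0.41 and 0.19 (ARAD1D09306g, not past the filter).

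In the lower pathway, which carries the products to acetyl-CoA, 1 gene passed 1. ARAD1C17776g, annotated as aldehyde dehydrogenase, had a level of 8.17 with glucose and 7.10 with the acid at 30 min, lower by 1.07 ± 0.34 (SD over 10 spots) in all 10 spots. At 2 h the levels were 6.43 and 6.41 and the difference -0.02 ± 0.15, so both media had come down to one level. The value at 30 min was under 1 in size with a background offset of 50 (-0.91) and with median scaling on top of it (-0.76). Its neighbour was lowered at 30 min only as well, at -1.04, and had 0.70 at 2 h. The acetyl-CoA synthetase gene ARAD1A05764g had -0.34 ± 0.18 and -0.32 ± 0.22. The other 3 identifiers with probes given for aldehyde dehydrogenase, and ARAD1D32912g, given for pyruvate carboxylase, had differences between -0.18 and 0.16. One of them, ARAD1D15158g, with 0.16 and -0.09, had 3.71 at 15 min. Under identifiers of chromosome D these are again values of the probes so labelled.

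**Figure D4:**
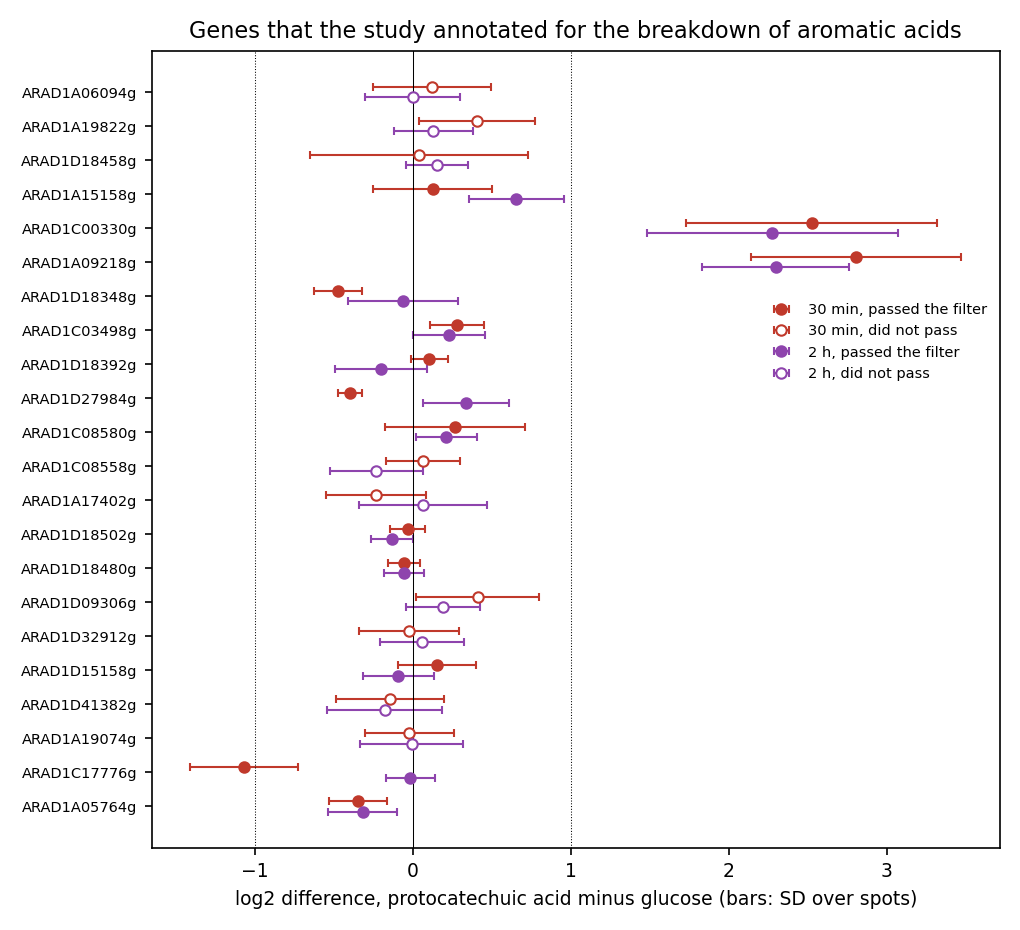
Log2 difference between protocatechuic acid and glucose (x axis) at 30 min (red) and 2 h (purple) for the 22 genes with probes that the study annotated, with the SD over spots as bars and open points for genes that did not pass the filter. ARAD1C00330g and ARAD1A09218g lie above 2 at both times, and ARAD1C17776g lies at -1.07 at 30 min and at -0.02 at 2 h.

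Of the 10 genes lowered at both times, ARAD1C34078g had the lowest mean. Its level with glucose was 7.92 at 30 min and 8.75 at 2 h, and with the acid 5.98 and 6.11. The difference was -1.94 ± 0.52 and -2.64 ± 0.60 (SD over 11 spots), and 0 of 11 spots were higher at either time. It was -1.88 at 15 min and 0.00 at 5 h. ARAD1D09460g, the second, had 6.90 and 7.67 with glucose and 5.76 and 5.83 with the acid. Its difference was -1.14 ± 0.73 at 30 min and -1.84 ± 0.38 at 2 h (SD over 11 spots), with 0 of 11 spots higher. The files pair neither with a name, and for both the glucose arrays lay above the acid arrays at each time.

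The 10 genes ranged from -1.94 to -1.04 at 30 min and from -2.64 to -1.04 at 2 h. In all 10 both acid arrays were below both glucose arrays, which the way the class was formed largely fixes, against 15.4% of all genes. At 15 min 3 of the 10 were lowered by at least 1 (2.57% of all genes) and at 5 h 1 was (1.72%), while 1 was raised by 1.34 at 5 h. The median level with glucose was 7.39 at 30 min and 7.81 at 2 h, well above that of the genes raised at both times. The way the classes were formed fixes this in part. A lowered gene needs a level above background with glucose, while a raised gene could pass the filter on the acid arrays alone. One of the 10 is a mitochondrial identifier with a single spot that was not well above background with the acid at either time, so its decrease is known only to be at least 1.75-fold and 1.70-fold, which is less than a doubling. The last gene inside the class had -1.04 and -1.86, and the first outside -0.99 and -1.55.

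The 43 genes raised at 30 min only had a median difference of 1.22 at 30 min and 0.17 at 2 h. The top 5 had 2.91, 2.62, 2.34, 2.28 and 2.08 at 30 min, and 0.48, 0.44, 0.15, 0.49 and 0.07 at 2 h. The first, a gene of chromosome A, had a level of 5.39 with glucose and 8.31 with the acid at 30 min, and of 5.25 and 5.73 at 2 h, so that the acid array alone was high. In the fifth, also on chromosome A, glucose fell too: it had 6.75 and 8.83 at 30 min, and 4.96 and 5.04 at 2 h. In all, 39 of the 43 fell by at least 0.5 from 30 min to 2 h with the acid (14.8% of all genes did). With glucose 8 fell and 7 rose by as much, where 13.4% and 14.9% of all genes did. The change with the acid was the larger part of the lost difference in 40 of the 43. All spots were higher with the acid in 35 of the 43 genes at 30 min and in 6 at 2 h. By chromosome 10 lay on A (1.54% of its genes that passed), 22 on D (1.29%), 10 on C (0.663%) and 1 on B (0.119%).

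The 55 genes raised at 2 h only had a median difference of -0.05 at 30 min and 1.33 at 2 h. The top 5 had 2.51, 2.35, 2.23, 2.01 and 1.92 at 2 h, and 0.00, 0.15, 0.10, 0.30 and 0.45 at 30 min. They took more than one path between the times. The first, on chromosome D, had 5.48 in both media at 30 min, and 5.39 with glucose and 7.89 with the acid at 2 h. The fourth, on chromosome C, had 8.36 and 8.65 at 30 min, and 6.07 and 8.08 at 2 h, so that glucose fell and the acid stayed high. Of the 55, 37 rose by at least 0.5 with the acid (15.1% of all genes did) and 20 fell by at least 0.5 with glucose (13.4% of all genes did). The change with the acid was the larger part in 37 and that with glucose in 18. The third and the fourth gene had 3.21 and 2.38 at 15 min, so these 2 were raised before and after 30 min. Of all 108 genes raised at 2 h, whatever their class, 29 were below 0 at 30 min, where 56.7% of all genes that passed the filter were.

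The 12 genes lowered at 30 min only included ARAD1C17776g and had a median difference of -1.09 at 30 min and -0.20 at 2 h. The 5 lowest had -1.48, -1.44, -1.36, -1.19 and -1.15 at 30 min and -0.18, -0.45, 0.42, -0.50 and -0.23 at 2 h. All spots were lower with the acid in each of the 12 at 30 min. From 30 min to 2 h 8 of the 12 rose by at least 0.5 with the acid (15.1% of all genes did). With glucose 5 fell by as much (13.4% of all genes did).

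The 27 genes lowered at 2 h only had a median difference of -0.24 at 30 min and -1.25 at 2 h. The 5 lowest had -1.94, -1.81, -1.77, -1.64 and -1.62 at 2 h and -0.13, -0.01, -0.35, 0.04 and -0.08 at 30 min. Here it was mostly glucose that moved: 20 of the 27 rose by at least 0.5 with glucose from 30 min to 2 h (14.9% of all genes did). With the acid 4 rose and 5 fell by as much, where 15.1% and 14.8% of all genes did. The second gene, on chromosome A, went from 5.48 to 8.23 with glucose and from 5.46 to 6.42 with the acid. The change with glucose was the larger part of the difference in 21 of the 27. At 5 h 6 of the 27 were lowered by at least 1 (22.2%, against 1.72% of all genes), and at 15 min 2 were (7.41%, against 2.57%). The classes were formed on the same 4 arrays, so these counts describe them and test nothing.

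**Figure D5:**
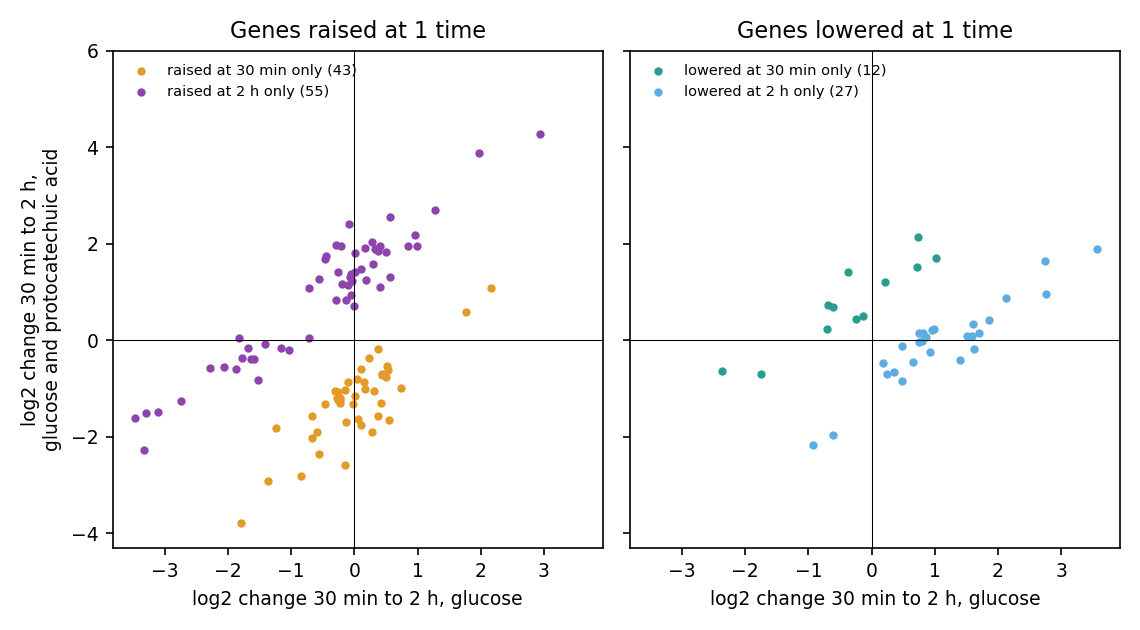
Change in level from 30 min to 2 h with glucose (x axis) and with protocatechuic acid (y axis), both in log2, for genes raised at one time only (left) and lowered at one time only (right). Genes raised at 30 min only lie mostly below 0 on the y axis (39 of 43 fell by at least 0.5 with the acid), and genes lowered at 2 h only lie mostly right of 0 on the x axis (20 of 27 rose by at least 0.5 with glucose).

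The array holds 36 identifiers of putative mitochondrial genes, many of them with 1 spot. At 30 min their median difference was 0.03 and 15 of 36 were below 0, beside 55.4% of all identifiers. At 2 h the median was -0.26 and 31 of 36 were below 0, again beside 55.4%. Of the 28 that passed the filter 0 were raised by at least 1, where 2.42% of all genes were at 30 min and 2.27% at 2 h. The 1 past -1 is the single-spot identifier whose decrease is only a bound under a doubling, where 0.547% and 1.07% of all genes were lowered. The spike-ins, many of them near background, had a median of -0.05 at 30 min and -0.09 at 2 h. The brightest of them lay between -0.24 and 0.02 at 2 h. The difference between the times was not tested for this list.

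The mean of both times was tested with limma with the time as a block, in which the 2 times are the only repeats and 1 residual degree of freedom remains. The labels do not say whether the 2 times of a medium came from 1 culture. The standard errors combine agreement between the times with a variance that limma borrows from all genes, with 4.57 prior degrees of freedom beside the 1 residual. They and the adjusted p therefore do not measure variation between cultures, and are not a measure of 1 gene's own agreement alone. After Benjamini-Hochberg adjustment over 4756 genes, 29 genes were higher with the acid (0.61%) and 6 lower (0.126%). All 29 were genes raised at both times and all 6 genes lowered at both times. ARAD1B07810g had a mean of 5.38 with a standard error of 0.16 (adjusted p = 0.000499 from limma), and ARAD1D17754g 7.48 with 0.50 (adjusted p = 0.00605). ARAD1C00330g had 2.40 with 0.15 (adjusted p = 0.00605) and ARAD1A09218g 2.55 with 0.18 (adjusted p = 0.0073), and both were higher at 2 of 2 times. ARAD1C34078g had -2.29 with 0.21 (adjusted p = 0.014 from limma) and ARAD1D09460g -1.49 with 0.21 (adjusted p = 0.0579), which missed 0.05. The other 11 annotated genes that passed the filter had adjusted p between 0.438 and 0.972 from limma, and their means lay between -0.54 and 0.39. The number of calls depended on the setting: only ARAD1B07810g passed in limma with a background offset of 50, and 0 without the time block, where 135 genes had an unadjusted p under 0.05 and the smallest adjusted p was 0.0556. Over the processing settings the adjusted p of ARAD1B07810g reached at most 0.0298. Calls were lost under at least 1 setting for ARAD1D17754g (adjusted p up to 0.151 from limma), ARAD1C00330g (up to 0.14), ARAD1A09218g (up to 0.108) and ARAD1C34078g (up to 0.347).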

How the data were processed

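Total RNA of each sample was labelled with 1 dye (Cy3) and hybridized to an Agilent array of 62976 spots, 61537 of them with yeast probes. The intensities of the scanner files were deposited by the authors as Agilent Feature Extraction 11.5.1.1 gave them, before normalization between arrays. The log2 values of the deposited table were made by the authors with limma (normexp background correction, then quantile normalization). The offset is not given in the sources used here, but the table was returned to within 5e-09 when normexp used 16 as its offset and all spots entered the quantile step. The added offset compresses differences of dim genes.

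Table rows were joined to spots by feature number, and gene identifiers were read from probe names. Control spots were left out. No spot of the 4 arrays was marked as saturated, and at most 1 yeast spot per array as non-uniform; none was removed. Spots were summarised per gene by their median, and genes passed with at least 50% of spots well above background on 1 of the 4 arrays. A fold beside a gene with no bright spot on the dimmer array is a lower bound, taken against the higher of that gene's value and the lowest spot well above background there. The test was limma 3.58.1 in R 4.3.3 (lmFit and eBayes, time as a block, Benjamini-Hochberg), checked on simulated data. Alternatives were offsets of 50 and 0, the processed signal minus its 75th percentile, median scaling after an offset of 50, other summaries of spots, other filters, a threshold of 1.5, and other limma settings. Per-sample columns left out numbered 0.

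Members and lists were chosen with earlier results of these data known. Named were all genes annotated in the study that have probes, the 2 highest and 2 lowest means among genes raised or lowered at both times with at least 3 probes, and, by values without identifiers, the 10 highest means and the 5 leading genes of each one-time class. The runs of neighbours were picked after their values were seen. No annotation was used beyond that of the study, so identifiers without a name there are not named. The 15 min and 5 h arrays entered no class.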

Additional observations from a re-analysis of the deposited data

Results flagged for a closer look

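The probes under ARAD1D27984g, an identifier that the study annotates as salicylate hydroxylase but whose place on the array was not settled, moved in opposite directions at the 2 times by more than any spike-in. With the acid it stood at -0.40 relative to glucose on the log2 scale after 30 min and at 0.34 after 2 h, and the difference between the times was not tested. Such a change of sign was common: 1867 of the 4756 genes that passed the filter had opposite signs at the 2 times. Both values were also smaller in size than the SD over all genes, 0.454 at 30 min and 0.443 at 2 h. Many spike-ins lay near background. Each time has 1 array per medium.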

How the results depend on the processing

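Classes depended on how dim spots were treated. With a background offset of 50, 23 genes were raised at both times (all among the 42), 4 lowered at both, 34 raised at 2 h only, 6 lowered at 30 min only and 17 lowered at 2 h only. With an offset of 0, 17 were lowered at both, 90 raised at 2 h only, 29 lowered at 30 min only and 47 lowered at 2 h only. The scanner's processed signal gave 92 raised at both (with all 42), 31 lowered at both, 101 raised at 30 min only, 133 raised at 2 h only, 82 lowered at 30 min only and 90 lowered at 2 h only. An offset of 50 followed by scaling to equal medians gave 2 lowered at both, 21 raised at 30 min only, 1 lowered at 30 min only and 12 lowered at 2 h only. It shared 27 of the 42 raised at both. At a threshold of 1.5 the classes held 22 raised at both, 1 lowered at both, 14 raised at 30 min only, 18 raised at 2 h only, 0 lowered at 30 min only and 7 lowered at 2 h only. A filter on all 4 arrays, which removes genes dim with glucose, left 20 raised at both. The 35 limma calls became 1 at the offset of 50, 58 at that of 0, 19 with the processed signal, 5 with median scaling after an offset of 50 and 64 with the mean over spots. They became 0 without the time block (limma, 135 genes at an unadjusted p under 0.05), 11 with all 8 arrays and 8 with Bonferroni adjustment. The cause of these shifts was not tested beyond the filter. Other class and limma counts stayed within 1.5 times their value. Among 592 values of 26 named genes, 534 counted as unchanged. For a difference this means within the SD over spots of the main value, and for a mean the same limma call or lack of one. Another 46 moved by more than that SD, 9 lost and 3 gained a limma call. In 47 of the 592 the sign changed, none with a main value above 0.233 in size. With 1 array per medium and time, the number of arrays limits the precision.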
